A study of Rattus with 6 samples.

Results

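The genes described are 10 enzymes of glycolysis, taken by symbol from the table of gene reads and kept in pathway order: Hk1, Hk2, Pfkl, Pfkp, Aldoa, Gapdh, Pgk1, Eno1, Pkm and Ldha. They are 10 of the 20742 genes in that table, and all 10 were among the 12882 genes with enough reads to be tested. The samples were 6 poly(A) RNA libraries of H9C2, a line of myoblast-like cells grown from the heart of a rat embryo. Of these, 3 carried a control plasmid and 3 carried RBM25 overexpression. The labels give no promoter, time after plasmid delivery, clone or culture of origin, and the libraries of a group may therefore differ for technical reasons only, a spread that the p-values then reflect. RBM25 is an RNA-binding protein that takes part in splice site choice with the U1 snRNP, and the comparison asked which genes differ in level when it is raised.

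Glycolysis splits glucose into pyruvate in the cytosol and yields ATP without oxygen. Hexokinase traps glucose in the cell, phosphofructokinase commits it to the pathway, and aldolase splits the sugar. Glyceraldehyde-3-phosphate dehydrogenase, phosphoglycerate kinase, enolase and pyruvate kinase then carry the fragments to pyruvate, which lactate dehydrogenase turns into lactate. Several steps have isozymes from separate genes with their own tissue patterns. Adult heart muscle draws mainly on fatty acids, while embryonic heart cells and dividing cell lines rely more on glycolysis.

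Rbm25 itself rose modestly, with no overlap between the groups. It was at 49.2, 44.5 and 45.7 CPM (reads scaled to library size) in control replicates 1, 2 and 3 and at 56.3, 55.9 and 60.1 CPM in the RBM25 replicates (log2 fold change 0.30 ± 0.047 SE, edgeR adjusted p = 0.0011). The similar gene Rbm25l1 had 5 reads summed over the controls and 366 summed over the RBM25 libraries, and how reads were divided between these genes is uncertain. Library totals ran from 25543849 to 33130256 reads. RBM25 replicate 3 stood apart from its group. Against RBM25 replicates 1 and 2 its counts gave a chi-square of 6.22 and 4.79 per degree of freedom, against 3.21 to 3.48 for the other pairs within a group. Of the muscle markers, Myod1, Myog, Tnnt2 and Casq2 were at 60.4, 21.4, 106 and 329 CPM on average in the control libraries, while Des and Actc1 were lower, at 9.25 and 0.776 CPM. Of the mature cardiomyocyte genes, Myl2, Tnni3 and Ryr2 had at most 10 reads each over all 6 libraries, and Myh6 had 25 reads summed over the controls and 45 summed over the RBM25 libraries (log2 fold change 0.72 ± 0.41 SE, edgeR adjusted p = 0.529). Summed over the 7 muscle and myoblast markers in the table, the level was 4582 to 4667 CPM in controls and 4631 to 4682 CPM with RBM25, most of it vimentin (mean 4105 CPM in controls). Of the 7 markers, 5 had a fold change above 0, as did 6290 of all 12882 tested genes. Among these markers 0 were called, beside 0.404% of all tested genes. Casq2 was higher in every RBM25 library than in any control, at 353 CPM on average (log2 fold change 0.10 ± 0.030 SE, edgeR adjusted p = 0.137). Of all tested genes 8.31% were higher without overlap. RBM25 replicate 3 was the highest library for Myog (25.6 CPM) and Tnnt2 (137 CPM) and the lowest for Myod1 (54.6 CPM). The summed level of 4 leukocyte markers was 6.05 to 6.69 CPM and 5.72 to 7.01 CPM, that of 5 endothelial markers 0.244 to 0.550 CPM and 0.121 to 0.347 CPM, and that of 5 epithelial markers 25.0 to 28.7 CPM and 25.7 to 29.9 CPM. These 3 sums overlapped between the groups. Most of the leukocyte sum came from Cd3e (mean 5.72 CPM in controls), and most of the epithelial sum came from Krt8 (mean 26.7 CPM in controls). The 4 cardiomyocyte markers summed to 0.353 to 0.485 CPM in controls and 0.505 to 0.572 CPM with RBM25, without overlap and mostly from Myh6, and their part in the results was not tested.

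The 10 enzymes covered a wide range of levels, and the middle and lower parts of the pathway held the abundant messages. Levels between genes are compared as FPKM, the authors' values scaled for gene length and library depth. Gapdh led with a mean of 3132 FPKM over the 6 libraries (range 3001 to 3251), which ranked 14 among the 20395 genes with an FPKM value. Aldoa followed at 1244 FPKM, then Eno1 at 1047, Ldha at 795, Pkm at 707 and Pgk1 at 585 FPKM, so that all 6 enzymes from aldolase onward were among the 156 most abundant genes.

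The entry enzymes were far lower. Hk1 was at 37.2 FPKM, Pfkl at 33.8, Pfkp at 11.2 and Hk2 at 3.63 FPKM on average. The step from Pgk1 down to Hk1 was 15.7-fold. No neighbours in this order overlapped in any of the 6 libraries, the closest pair being Hk1 (36.0 to 38.2 FPKM) and Pfkl (32.1 to 35.3 FPKM). The order depends on the gene lengths behind FPKM, whose definition the sources used here do not give. Set against the read counts, the FPKM values imply 6.88 kb for Pfkp, 3.20 kb for Pfkl, 3.22 kb for Pkm and 2.04 kb for Ldha. On reads alone Pkm stood above Ldha, at a control mean of 2352 against 1620 CPM.

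**Figure D1:**
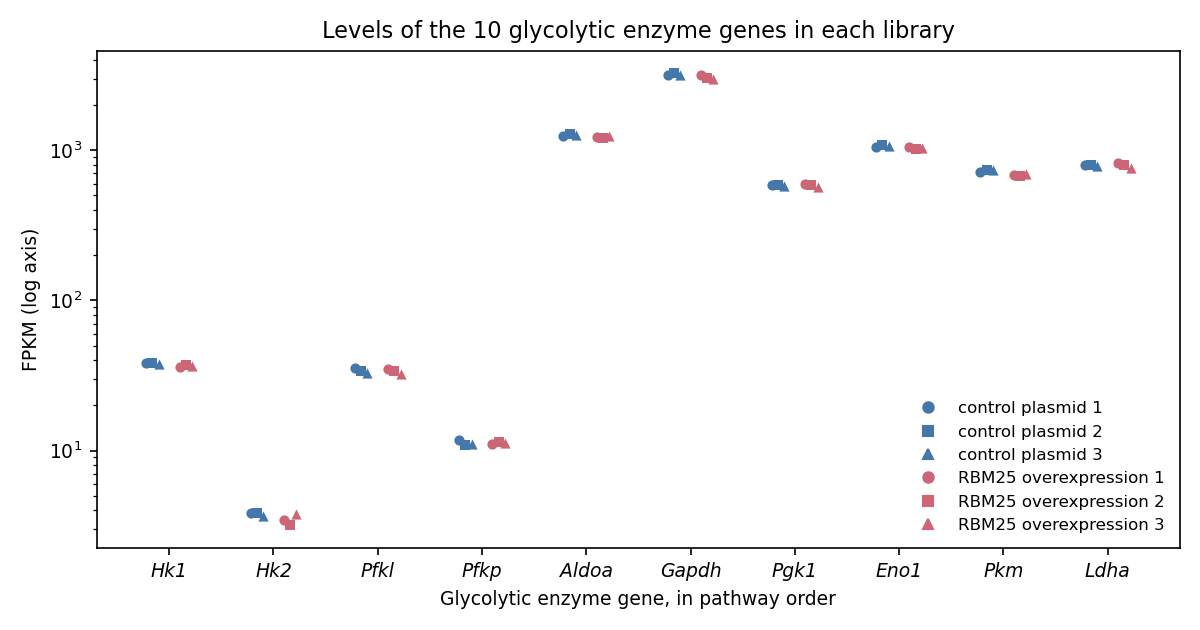
FPKM on a log axis for the 10 glycolytic enzyme genes, 1 point per library, with control plasmid in blue, RBM25 overexpression in red and the marker shape giving the replicate. Gapdh stood highest (3001 to 3251 FPKM) and Hk2 lowest (3.18 to 3.85 FPKM), and for every gene the groups lay close together on this scale.

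With RBM25 overexpression the 10 enzymes shifted little and none passed the test. Of the 10, 0 were called by edgeR's quasi-likelihood test at an adjusted p under 0.05, where 0.404% of all 12882 tested genes were called (52 genes, 46 higher and 6 lower). A count of 0 among 10 genes is near that share. At an unadjusted p under 0.05 there were 2 of the 10, Pkm and Gapdh, both lower, against 11.2% of all tested genes in either direction and 4.78% lower. Fold changes were below 0 for 9 of the 10 and for 51.2% of all tested genes, with a median log2 fold change of -0.049 for the enzymes and -0.0021 for all genes. The count below 0 was 7 when libraries were scaled by their totals alone. With 1 library left out it ran from 6 (without RBM25 replicate 3) to 10 (without control replicate 3, and without RBM25 replicate 2). In bulk RNA a lower level in each cell and fewer cells with a high level cannot be told apart.

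Pkm, the pyruvate kinase gene on chromosome 8, came closest to a call. It was at 2321, 2368 and 2367 CPM in control replicates 1, 2 and 3 and at 2196, 2178 and 2218 CPM in RBM25 replicates 1, 2 and 3. Every RBM25 library therefore lay below every control library, and the gap between the groups exceeded the range within either. The log2 fold change was -0.098 ± 0.025 (SE), a difference of -6.57% with a 95% interval of -9.86% to -3.17%, and the edgeR adjusted p was 0.0799. Its unadjusted p (6.16e-04) ranked 98 among all tested genes. DESeq2 called it (log2 fold change -0.098, adjusted p = 0.0268), as did edgeR without RBM25 replicate 3 (-0.10, adjusted p = 0.0060). Limma on log2(FPKM + 0.1) and log2(FPKM + 1) did not call Pkm (adjusted p = 0.327 and 0.334, and 0.502 for the former with no filter). Nor did edgeR with other scalings or other filters on low counts (adjusted p of 0.0536 to 0.0805). Over the other 5 fits that each left out 1 library, the log2 fold change lay between -0.11 and -0.089 and Pkm was not called, with an adjusted p of up to 0.48 without control replicate 2.

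Pkm was lower relative to several of its neighbours as well as to the whole library. The ratios were chosen after the values were seen and reuse the Pkm reads, so they give no separate support for its lower level. The ratio of Pkm to Aldoa reads was 0.928, 0.921 and 0.931 in the control libraries and 0.895, 0.901 and 0.894 in the RBM25 libraries. The groups also did not overlap for Pkm over Eno1 (means 0.999 and 0.965) and Pkm over Pgk1 (2.24 and 2.10). They overlapped for Pkm over Ldha, with control values of 1.42 to 1.47 and RBM25 values of 1.30 to 1.43, and for Pkm over Gapdh (means 0.472 and 0.463). These ratios do not depend on how libraries were scaled, and how often such ratios separate the groups among all genes was not measured. The 2 loci annotated as M2 pyruvate kinase-like, LOC100364062 and LOC100362738, held 3269 reads against 403766 for Pkm. Their log2 fold changes were -0.020 and 0.026 (edgeR adjusted p = 0.953 and 0.97), so the share of reads at these loci was 0.785% of Pkm in controls and 0.834% with RBM25. The sources used here do not say how the counting divided reads among such similar loci.

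Pkm makes the M1 and M2 forms of pyruvate kinase by a choice between mutually exclusive exons, a choice that PTBP1, hnRNPA1 and hnRNPA2B1 are known to control. Gene-level counts sum both forms, so the split between them was not analysed here. Over all tested genes 0.404% were called, a share at which 0 calls in a short list is near the background. Of 7 tested genes for those regulators, further splicing factors and MYC proteins, 0 were called. Ptbp1 had the smallest p of them, at 492 ± 6.25 CPM (SD, n = 3) in controls and 480 ± 23.0 CPM (SD, n = 3) with RBM25 (log2 fold change -0.037 ± 0.033 SE, edgeR adjusted p = 0.73).

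Gapdh, on chromosome 4, encodes the dehydrogenase that makes the pathway's NADH and is widely used as a reference gene. It was at 4949, 5060 and 4936 CPM in control replicates 1, 2 and 3 and at 4922, 4707 and 4624 CPM in the RBM25 replicates. The groups did not overlap, but the gap between RBM25 replicate 1 and the lowest control was smaller than the SD of the controls (68.0 CPM), and RBM25 replicate 3 was the lowest. The log2 fold change was -0.068 ± 0.026 (SE), a difference of -4.63% with a 95% interval of -8.07% to -1.06% (edgeR adjusted p = 0.289). Without RBM25 replicate 3 it was -0.049 (adjusted p = 0.282) and without RBM25 replicate 1 it was -0.092 (adjusted p = 0.112). The table lists 15 further loci described as copies of or similar to this gene, and together they held 418 reads, or 0.0483% of the 864706 Gapdh reads.

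**Figure D2:**
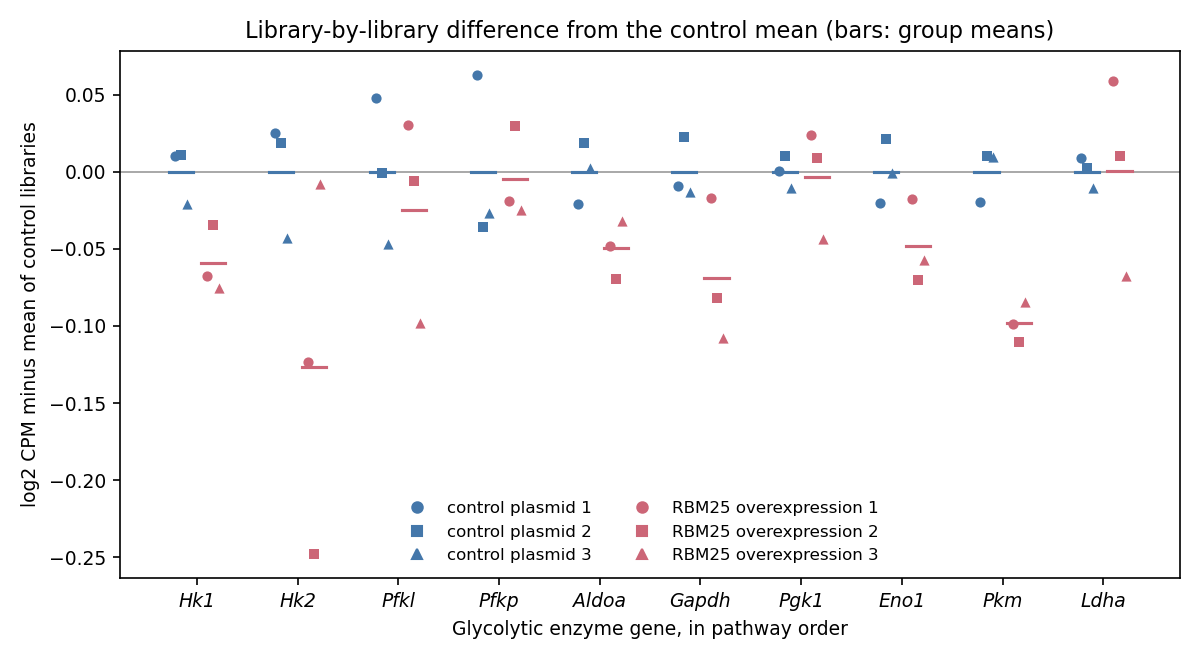
Log2 CPM of each glycolytic enzyme gene in each library, minus the mean of the 3 control libraries, with bars at the group means. Pkm has its 3 RBM25 libraries together at -0.085 to -0.11, Ldha has them spread from -0.068 to 0.059, and Hk2 has 1 RBM25 library at -0.25.

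At the head of the pathway, Hk1, the widely expressed hexokinase, was slightly lower and Hk2, the insulin-regulated hexokinase of muscle, was variable. Hk1 on chromosome 20 was at 179, 179 and 175 CPM in the controls and at 169, 173 and 169 CPM with RBM25. All RBM25 libraries lay below all control libraries, yet the log2 fold change of -0.059 ± 0.031 (SE) did not pass (95% interval -8.20% to 0.407%, edgeR adjusted p = 0.5). Hk2 on chromosome 4 had only 386 to 451 reads a library and was at 15.2, 15.1 and 14.5 CPM in controls and 13.7, 12.5 and 14.8 CPM with RBM25. RBM25 replicate 3 lay among the controls and replicate 2 was the lowest. The log2 fold change of Hk2 was the most negative of the 10 enzymes, at -0.12, and also the least certain (SE 0.076, 95% interval -17.7% to 2.25%, edgeR adjusted p = 0.573). Without RBM25 replicate 2 it was -0.064.

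The phosphofructokinase genes, which encode the committing step, differed by less than the replicate spread. Pfkl, the liver-type gene, was at 113, 109 and 106 CPM in controls and 112, 109 and 102 CPM with RBM25, so the groups overlapped almost fully (log2 fold change -0.023 ± 0.038 SE, 95% interval -6.68% to 3.87%, edgeR adjusted p = 0.873). Pfkp, the platelet-type gene, was at 80.9, 75.5 and 76.0 CPM and at 76.4, 79.0 and 76.1 CPM. Its log2 fold change was -0.0041 ± 0.038 (SE, adjusted p = 0.982), with a 95% interval of -5.59% to 5.31%. Control replicate 1 was the highest library for both genes, and without it both fold changes were above 0 (0.0031 and 0.029). Without RBM25 replicate 3 they were also above 0 (0.013 and 0.0059), as was that of Pfkp without RBM25 replicate 1 (0.0057).

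Aldoa, which encodes the muscle and general form of aldolase, and Eno1, which encodes alpha-enolase, were both a few percent lower. Aldoa was at 2502, 2571 and 2542 CPM in controls and 2455, 2419 and 2482 CPM with RBM25. The groups did not overlap on this scale but did when libraries were scaled by their totals alone or expressed as FPKM (log2 fold change -0.050 ± 0.025 SE, 95% interval -6.81% to 0.148%, edgeR adjusted p = 0.472). Eno1 was at 2323, 2390 and 2354 CPM and at 2327, 2244 and 2263 CPM. RBM25 replicate 1 was above control replicate 1, and the log2 fold change of -0.048 ± 0.026 (SE) did not pass (95% interval -6.79% to 0.343%, adjusted p = 0.502). In FPKM, by contrast, the Eno1 groups did not overlap (1049 to 1078 against 1011 to 1046 FPKM).

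Pgk1, the kinase that makes the pathway's first ATP, showed the smallest spread in its controls after Ldha, and its group means almost coincided. It was at 1052, 1059 and 1044 CPM in controls and 1069, 1058 and 1020 CPM with RBM25. The log2 fold change was -0.0034 ± 0.028 (SE), with a 95% interval of -4.11% to 3.80% (edgeR adjusted p = 0.978). RBM25 replicate 1 was the highest of the 6 libraries and RBM25 replicate 3 the lowest, and without the latter the log2 fold change was 0.016.

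Ldha, which encodes the main subunit of muscle-type lactate dehydrogenase, had the same pattern more widely spread. It was at 1630, 1623 and 1608 CPM in controls and at 1688, 1632 and 1546 CPM with RBM25. The controls varied by 0.69% and the RBM25 libraries by 4.4% (coefficient of variation), and the RBM25 values lay on both sides of the controls. The log2 fold change was 0.0014 ± 0.029 (SE), the only one above 0, with a 95% interval of -4.01% to 4.38% (edgeR adjusted p = 0.992). It was -0.026 without RBM25 replicate 1 and 0.035 without RBM25 replicate 3, so its sign rested on single libraries.

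Of the 10 enzymes, 4 had every RBM25 library below every control (Hk1, Aldoa, Gapdh and Pkm) and 0 had every RBM25 library above. Among all tested genes 7.94% were lower without overlap and 8.31% higher, or 16.2% in either direction. In FPKM the count was again 4, with Eno1 in place of Aldoa, where 7.42% of all tested genes were lower without overlap. With libraries scaled by their totals alone it was 3, against 6.59% of all tested genes. Leaving out each library in turn gave 4 or 5 such enzymes, against 12% to 14.9% of all tested genes. RBM25 replicate 3 had all 10 enzymes below their control means, and replicates 1 and 2 had 7 each. Control replicates 1, 2 and 3 had 4, 2 and 8 of the 10 below the same means, so 7 was also exceeded by a control library.

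As a share of each library, the 10 messages made up 1.51%, 1.54% and 1.52% of reads in control replicates 1, 2 and 3 and 1.50%, 1.46% and 1.47% in RBM25 replicates 1, 2 and 3. The RBM25 libraries were all below the controls, with group means of 1.52% ± 0.0127 and 1.47% ± 0.0193 (SD, n = 3). This share is summed from the same reads as the single enzymes above, so it gives no separate support for lower levels. How often sums of 10 genes separate the groups was not measured. Gapdh alone gave 32.6% of the summed level in controls and 32.3% with RBM25.

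**Figure D3:**
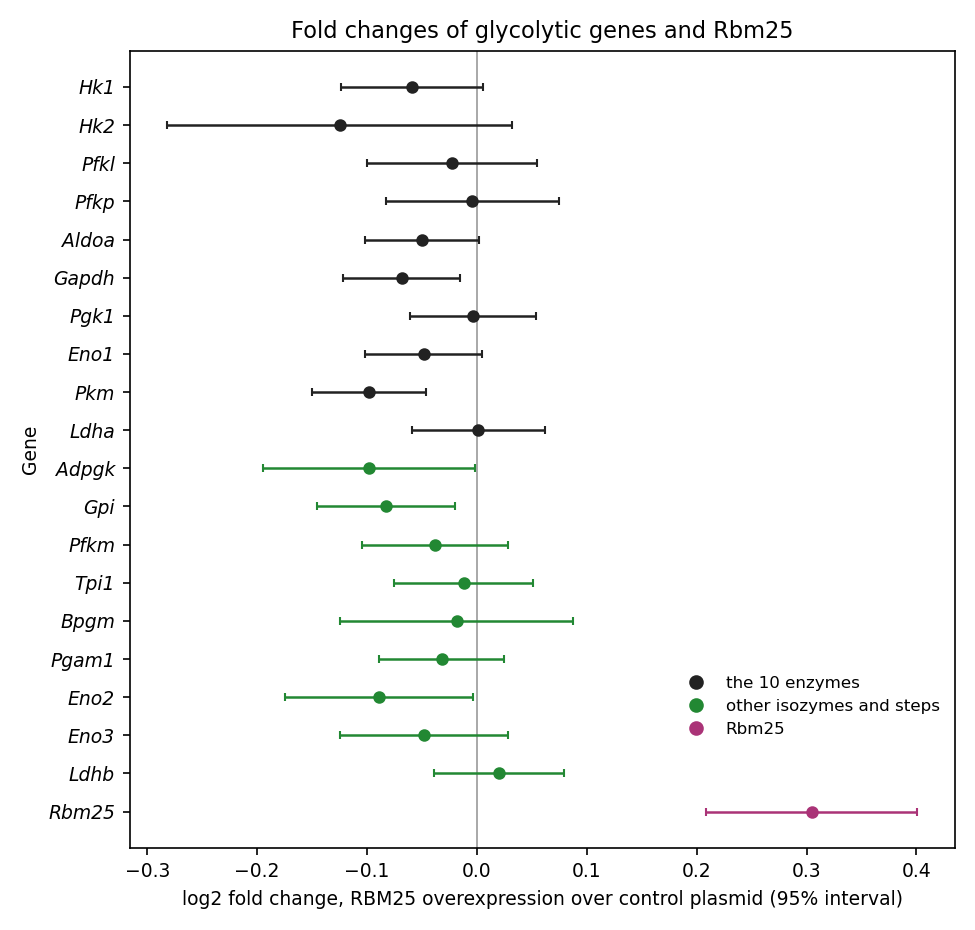
Log2 fold change of RBM25 overexpression over control plasmid with its 95% interval, for the 10 glycolytic enzymes (black), other isozymes and steps with a control mean of at least 10 CPM (green) and Rbm25 (purple). Among the 10 enzymes the intervals of Pkm and Gapdh lie below 0 and the other 8 include it, while that of Rbm25 runs from 0.21 to 0.40. Of the other isozymes and steps, the intervals of Adpgk, Gpi and Eno2 also lie below 0.

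The share of each isozyme within its step differed between groups by less than the larger of the group SDs. Hk2 took 9.16%, 9.12% and 8.95% of the summed hexokinase 1 and 2 FPKM in control replicates 1, 2 and 3 and 8.76%, 7.92% and 9.47% in the RBM25 replicates. Pfkm, the muscle-type phosphofructokinase, was the leading gene of its step in every library, at 54.7% ± 1.10 (SD, n = 3) of the summed FPKM of Pfkl, Pfkp and Pfkm in controls and 54.4% ± 1.35 (SD, n = 3) with RBM25. Pfkl held 34.1% and 34.2%. Pfkp held 11.2% ± 0.304 and 11.4% ± 0.0812 (SD, n = 3). Its share of reads was 20.5% and 20.8%. Reads are not divided by gene length, so this share weighs a gene of long implied length more.

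Ldhb, the heart-type lactate dehydrogenase subunit, made up 27.0% ± 0.355 of the summed Ldha and Ldhb FPKM in controls and 27.2% ± 0.874 with RBM25 (SD, n = 3). Two-sided exact permutation tests of the Hk2, Pfkp and Ldhb shares gave p = 0.6, 0.4 and 0.8, each 0.8 after adjustment over the 3 shares. The smallest p that 3 libraries against 3, or 3 against 2, allow is 0.1. Single libraries moved these small differences (RBM25 minus control, in percentage points). The Hk2 difference was -0.35, and -0.73 without RBM25 replicate 3 (exact p = 0.1) and 0.044 without RBM25 replicate 2. The Pfkp difference was 0.19, and 0.37 without control replicate 1 (exact p = 0.1) and 0.10 without control replicate 2. The Ldhb difference was 0.28, and 0.69 without RBM25 replicate 1 and -0.18 without RBM25 replicate 3.

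**Figure D4:**
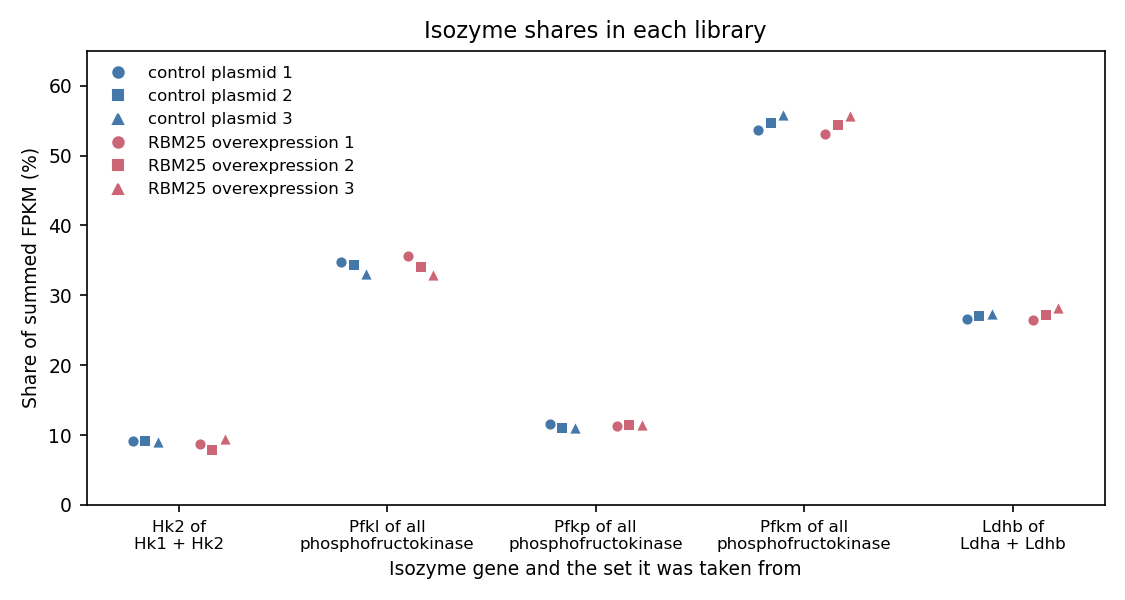
Share of summed FPKM taken by an isozyme gene in each library, in percent, with control plasmid in blue and RBM25 overexpression in red. All 5 shares overlap between the groups, and RBM25 replicate 2 has the lowest Hk2 share (7.92%).

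The remaining genes of the pathway gave no call. Of 12 tested isozymes and further steps 0 were called and 9 had a fold change below 0 (median log2 fold change -0.028), beside 0.404% called, 51.2% below 0 and a median of -0.0021 over all tested genes. At that share of calls, a list of this size with 0 calls is near the background, and the same holds for the lists that follow. At an unadjusted p under 0.05 there were 3 of the 12, Adpgk, Gpi and Eno2, all lower. Of all tested genes 11.2% reached this in either direction and 4.78% lower. Gpi, the isomerase between hexokinase and phosphofructokinase, had the smallest p, at 362 ± 7.18 and 342 ± 5.32 CPM (SD, n = 3; log2 fold change -0.083 ± 0.031 SE, edgeR adjusted p = 0.284). Tpi1, triose phosphate isomerase, and Pgam1, phosphoglycerate mutase, which fill the remaining steps, had log2 fold changes of -0.012 and -0.032.

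Transport and the exits of the pathway gave no call either. Among 8 tested glucose and lactate carriers 0 were called. Slc16a1, the lactate carrier MCT1, had the smallest p, at 101 ± 2.79 and 93.8 ± 1.29 CPM (SD, n = 3; log2 fold change -0.10 ± 0.035 SE, edgeR adjusted p = 0.218), while its relative Slc16a7 had a log2 fold change of 0.20 (adjusted p = 0.221). Of 17 tested switches of flux and pyruvate entry 0 were called, with Pdk2, a kinase that inhibits pyruvate dehydrogenase, at the smallest p (-0.15 ± 0.058 SE, adjusted p = 0.299). Of 7 pentose phosphate genes 0 were called (Pgd, which encodes phosphogluconate dehydrogenase, -0.073 ± 0.031 SE, adjusted p = 0.346), and of 11 genes of glucose and glycogen synthesis and breakdown 0 were called (Pc, pyruvate carboxylase, -0.099 ± 0.035 SE, adjusted p = 0.256).

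Hypoxia-inducible factor is the classic activator of most of these enzymes. Of its 16 tested regulators and targets 0 were called, 11 had a fold change below 0 and the median log2 fold change was -0.030, against 51.2% below 0 and a median of -0.0021 over all tested genes. Egln2, an oxygen-sensing prolyl hydroxylase, had the smallest p, at 50.7 ± 3.06 and 46.1 ± 2.21 CPM (SD, n = 3; log2 fold change -0.14 ± 0.049 SE, edgeR adjusted p = 0.255). Hif1a itself, named after its values were seen, was at 43.9 ± 2.46 and 40.9 ± 0.625 CPM (SD, n = 3; log2 fold change -0.10 ± 0.049 SE, adjusted p = 0.427).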

How the data were processed

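Poly(A) RNA of 6 H9C2 libraries was made into strand-marked libraries and sequenced as read pairs, per the labels' protocols. The submitters' processing notes name HISAT2, DESeq2 and the build mRatBN7.2. The sources used here do not name the counting program, annotation or strand setting, so overlapping genes and near-identical copies are uncertain. The authors deposited raw counts of reads per gene in whole numbers, and FPKM values rounded by the authors.

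The test of counts used R 4.3.3 and edgeR 4.0.16, with filterByExpr (minimum count of 10), TMM scaling and a robust quasi-likelihood model that held only the group. P-values were adjusted by Benjamini-Hochberg over all tested genes, and a gene was called at an adjusted p under 0.05. The SE is the fold change divided by the square root of F, and 95% intervals use the fit's degrees of freedom. CPM are TMM-scaled. Alternatives used DESeq2 1.42.0 and limma-trend 3.58.1 on log2(FPKM + 0.1) and log2(FPKM + 1). The tests were checked on simulated data.

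The enzymes and gene lists were chosen with earlier results of these data known. Of 137 listed symbols, 126 were in the table; members not listed there were not analysed here. Named genes are the 10 enzymes, Rbm25 and Rbm25l1, and the member of each pathway list with the smallest p (no list had a call); the genes most alike in pattern are not reported here, and others named were chosen after their values were seen. No batch is given. Promoter motifs were not analysed, and no coordinates are given, since the gene table at hand is of another assembly.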

Additional observations from a re-analysis of the deposited data

How the results depend on the processing

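The number of the 10 enzymes called was 0 in 12 of 15 alternatives. It was 1 with DESeq2 (Pkm), which called 48 of 15112 genes in all, and 0 to 1 when each library was left out in turn, the 1 being Pkm without RBM25 replicate 3, where 352 of 13098 genes were called. The count over all genes was less steady: 52, against 205 with no filter on low counts, 3 and 2 with limma on log2(FPKM + 0.1) and log2(FPKM + 1), 6 with limma and no filter on low values, and 5 to 352 without 1 library. It was 5 with control replicate 2 left out, 21 with control replicate 3 left out and 352 with RBM25 replicate 3 left out. The labels do not say what the replicate numbers mark, so whether they pair the samples is not known. Correlations of same-numbered deviations from the group means were 0.044, -0.066 and -0.0073. With the replicate number as a block, 436 of 12882 genes and 2 of the enzymes were called, Pkm (edgeR adjusted p = 2.63e-04) and Gapdh (0.0088). The median log2 fold change of the enzymes stayed between -0.054 and -0.036 without 1 library, the latter without RBM25 replicate 2. Signs near 0 reversed. With scaling by totals alone, Pfkp was at 0.0024 and Pgk1 at 0.0032. Without 1 library Pfkl ranged from -0.048 to 0.013, Pfkp from -0.021 to 0.029, Pgk1 from -0.015 to 0.016 and Ldha from -0.026 to 0.035. The libraries whose omission turned a sign were control replicate 1 and RBM25 replicate 3 for Pfkl, these and RBM25 replicate 1 for Pfkp, control replicate 2 and RBM25 replicate 3 for Pgk1, and control replicate 3 and RBM25 replicates 1 and 2 for Ldha. The difference in Hk2 share ranged from -0.73 to 0.044 percentage points (above 0 without RBM25 replicate 2) and that in Ldhb share from -0.18 to 0.69 (below 0 without RBM25 replicate 3). The cause of these shifts was not tested. Hk2, the least read of the enzymes, had the widest interval.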
